A study of Mus musculus with 24 samples.

Results

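The 2 latest stages of a cardiac differentiation course, D15 and D10 (days 15 and 10), were compared by the chromatin regions called accessible in each. Both come from A2lox.cre, an established line of mouse embryonic stem cells engineered to accept an inducible transgene at a fixed site. The labels give 2 biological replicates at each stage, call the cells of D15 and D10 cardiomyocytes, and name no treatment or genotype that separates the stages. The other 20 samples, at 2i (a medium that keeps stem cells naive) and D0 to D8, are used below only to say whether a region had been called earlier. Accessibility was read by ATAC-seq, in which the Tn5 transposase inserts sequencing adapters into open DNA.

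The members are the 32426 regions obtained by merging the D15 and D10 peak lists, of 128693 regions when all 12 lists of the series are merged. A region counted as shared when peaks of both lists fell in it with an overlap of at least 1 bp. Of the 32426 regions, 6206 (19.1%) were D15-only, 7105 (21.9%) were D10-only and 19115 (58.9%) were shared. The labels name 1 peak list for both replicates of a stage, so no value here has a replicate spread and no difference between D15 and D10 was tested. Absence from a list means that no peak was called, which is not the same as closed chromatin, and a mixed culture with fewer cells of a type cannot be told apart from less accessibility per cell. The replicate signal tracks were not used here.

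In a maturing cardiomyocyte the sarcomere (thick myosin and thin actin filaments anchored at Z-discs) is assembled and coupled to calcium released through the ryanodine receptor and taken back by the SERCA pump. Fetal isoforms of myosin and troponin are then exchanged for adult ones, and fatty acid oxidation takes over from glycolysis. Cultures differentiated from stem cells also hold smooth muscle, endothelial, epicardial and fibroblast cells, and fibroblasts deposit the extracellular matrix. Accessible regions lie at promoters, many of which are open in most cell types, and at distal enhancers, which are more often specific to a cell type.

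Promoters of 6 genes whose call differed between D15 and D10 are printed here as examples, in reference sequence that is the same for both stages. The 4 genes printed first had their promoter called at D15 and not at D10, and the 2 after them at D10 and not at D15. They were chosen after their values were seen, as genes of muscle or matrix, and all 6 intervals lay in one-list regions. Each window runs from 250 bases before to 50 bases after the start (RefSeq, GRCm38.p6, the assembly of mm10), 5′ to 3′ on the gene's strand, with matches to TATAAA and to GGAATG (the core bound by TEAD factors), on either strand, in capitals.
Mrln: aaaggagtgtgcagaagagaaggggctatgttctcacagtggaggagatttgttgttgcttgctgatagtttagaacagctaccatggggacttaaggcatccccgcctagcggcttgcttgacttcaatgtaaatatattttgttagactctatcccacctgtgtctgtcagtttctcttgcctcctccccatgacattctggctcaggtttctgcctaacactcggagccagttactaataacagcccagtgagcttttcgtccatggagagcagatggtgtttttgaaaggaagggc
Cox8b: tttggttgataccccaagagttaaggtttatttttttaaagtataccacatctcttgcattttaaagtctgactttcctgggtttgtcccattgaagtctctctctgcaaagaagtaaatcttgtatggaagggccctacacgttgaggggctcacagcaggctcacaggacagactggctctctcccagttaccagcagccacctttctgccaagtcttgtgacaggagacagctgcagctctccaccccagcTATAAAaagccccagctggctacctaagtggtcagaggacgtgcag
Bgn: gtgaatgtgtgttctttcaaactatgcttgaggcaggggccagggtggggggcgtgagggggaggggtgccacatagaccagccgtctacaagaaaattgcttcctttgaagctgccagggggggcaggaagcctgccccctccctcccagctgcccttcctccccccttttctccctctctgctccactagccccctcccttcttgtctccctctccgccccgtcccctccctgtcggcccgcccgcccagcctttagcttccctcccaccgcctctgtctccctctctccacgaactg
Ccn1: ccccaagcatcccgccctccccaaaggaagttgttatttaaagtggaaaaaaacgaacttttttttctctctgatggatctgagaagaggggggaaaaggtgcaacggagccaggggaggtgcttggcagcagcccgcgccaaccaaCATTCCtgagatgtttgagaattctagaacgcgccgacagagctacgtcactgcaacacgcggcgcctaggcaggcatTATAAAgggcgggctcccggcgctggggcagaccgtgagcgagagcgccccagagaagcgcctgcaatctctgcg
Myom1: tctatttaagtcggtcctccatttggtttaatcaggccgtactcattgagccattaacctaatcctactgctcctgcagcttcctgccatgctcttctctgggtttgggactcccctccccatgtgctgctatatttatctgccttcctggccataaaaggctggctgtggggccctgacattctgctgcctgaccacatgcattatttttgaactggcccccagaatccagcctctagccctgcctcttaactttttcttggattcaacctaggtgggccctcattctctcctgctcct
Postn: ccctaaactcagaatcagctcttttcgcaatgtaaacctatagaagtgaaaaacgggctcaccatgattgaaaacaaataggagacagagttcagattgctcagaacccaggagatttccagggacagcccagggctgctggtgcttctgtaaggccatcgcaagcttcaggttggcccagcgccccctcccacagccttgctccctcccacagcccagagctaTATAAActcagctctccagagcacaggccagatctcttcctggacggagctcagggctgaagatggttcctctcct

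Mrln encodes myoregulin, a small membrane peptide that inhibits the SERCA calcium pump. Its window, chr10:70204414-70204713 on the plus strand, was overlapped by a D15 interval at chr10:70204430-70205346 and by no interval of D10 or of the other 10 lists. The fold enrichment there, which is the authors' own value for a peak over its local background, was 7.71. Cox8b encodes the muscle isoform of a cytochrome c oxidase subunit, and its window (chr7:140900397-140900696, minus strand) holds TATAAA. It was met by a D15 interval of fold enrichment 3.81 at chr7:140900143-140900412 and was called in no other list.

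Bgn encodes biglycan, a proteoglycan of the matrix. Its window (chrX:73483351-73483650, plus strand), without either motif, was called at D15 alone of the 12 lists, with a fold enrichment of 3.49. Ccn1 encodes a matrix-associated protein whose gene is a known target of YAP and TEAD. Its window (chr3:145649936-145650235, minus strand), which holds TATAAA and GGAATG, was called at D15 and in 9 of the 10 other lists, so only D10 and D1 lacked it. The D15 fold enrichment at Ccn1 was 2.49, below the median of 5.55 over the D15 list.

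Myom1 encodes myomesin 1, a cross-linker of thick filaments. Its window (chr17:71019307-71019606, plus strand) was called at D10, with a fold enrichment of 3.70, and at D4, D7 and D8, but not at D15. Postn encodes periostin, a matrix protein of fibroblasts and valve cells. The Postn window (chr3:54360857-54361156, plus strand), with TATAAA, was met by a D10 interval at chr3:54360947-54361184, and was also called at D8. RefSeq lists another start of Postn upstream, and a D15-only interval at chr3:54358668-54358962 was centred 0.452 kb before that one, so the D15 and D10 calls lay at different starts of the gene.

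The D15 and D10 lists were similar in size and in covered sequence. D15 had 36248 peaks in 25413 intervals, covering 18.4 Mb, and D10 had 32641 peaks in 26381 intervals, covering 17.5 Mb. Of D15 intervals, 24.4% (Wilson 95% interval 23.9 to 24.95%) met no D10 interval, and of D10 intervals 26.9% (26.4 to 27.5%) met no D15 interval. Such intervals cover counting error only. By base pairs, 72.9% of the sequence called at D15 was also called at D10, and 76.5% of that called at D10 was also called at D15.

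Which list held more of its own depended on how the lists were cut. With the 32641 peaks of lowest q taken from each list, 19.0% of D15 intervals and 30.6% of D10 intervals stood alone. That number is the whole D10 list, so this setting removed peaks from D15 only. With only peaks of −log10 q of at least 5 from each list, 20.5% of D15 intervals and 15.7% of D10 intervals stood alone. An interval can then also stand alone because the other list called it more weakly. This cut gave 3694 D15-only and 2669 D10-only regions. Only 1874 D15 intervals and 1413 D10 intervals of that strength lacked any call in the other full list. The order of the shares thus turned with the filter.

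Regions called at one stage were narrow and weak beside the shared ones. D15-only intervals had a median width of 338 bp (quartiles 256 and 461 bp) and D10-only intervals 328 bp (263 and 433 bp). Shared intervals had a median width of 794 bp in the D15 list and 739 bp in the D10 list. The median fold enrichment was 3.84 for D15-only against 6.64 for shared intervals of the D15 list, and 3.59 for D10-only against 6.55 for shared intervals of the D10 list. A −log10 q of at least 5 was reached by 30.2% (29.1 to 31.4%) of D15-only and 19.9% (19.0 to 20.8%) of D10-only intervals, against 83.8% and 80.7% of the shared intervals of D15 and D10. Few one-list calls sat next to a call of the other list: 8.35% (7.68 to 9.06%) of D15-only intervals had a D10 interval within 1 kb, and 4.62% (4.15 to 5.13%) of D10-only intervals had a D15 interval within 1 kb.

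Shared regions were split into more summits at D15. A summit is a local maximum that the peak caller reports within an interval. Among 18872 pairs in which 1 D15 interval met 1 D10 interval, 26.1% (25.5 to 26.8%) had more summits at D15, 65.0% (64.3 to 65.7%) had the same number and 8.90% (8.50 to 9.31%) had fewer. The mean was 1.53 summits at D15 and 1.31 at D10. At least 4 summits were found in 602 of these intervals at D15 and in 210 at D10.

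The extra summits were also seen at matched width. The paired intervals were wider at D15 in 62.5% (61.8 to 63.2%) of cases, with medians of 794 bp at D15 and 739.5 bp at D10. Among intervals of 800 to 1000 bp the mean was 1.46 summits at D15 and 1.28 at D10, and among those of 1400 to 1600 bp it was 2.67 at D15 and 2.31 at D10. Over all intervals, 30.2% had more than 1 summit at D15 and 18.8% at D10, and the other 10 lists lay between 10.1 and 15.7%. For peaks enriched between 4.9- and 5.1-fold, the median −log10 p, which increases with coverage, was 11.5 at D15 and 11.1 at D10, and its part in the summit counts was not tested.

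**Figure D1:**
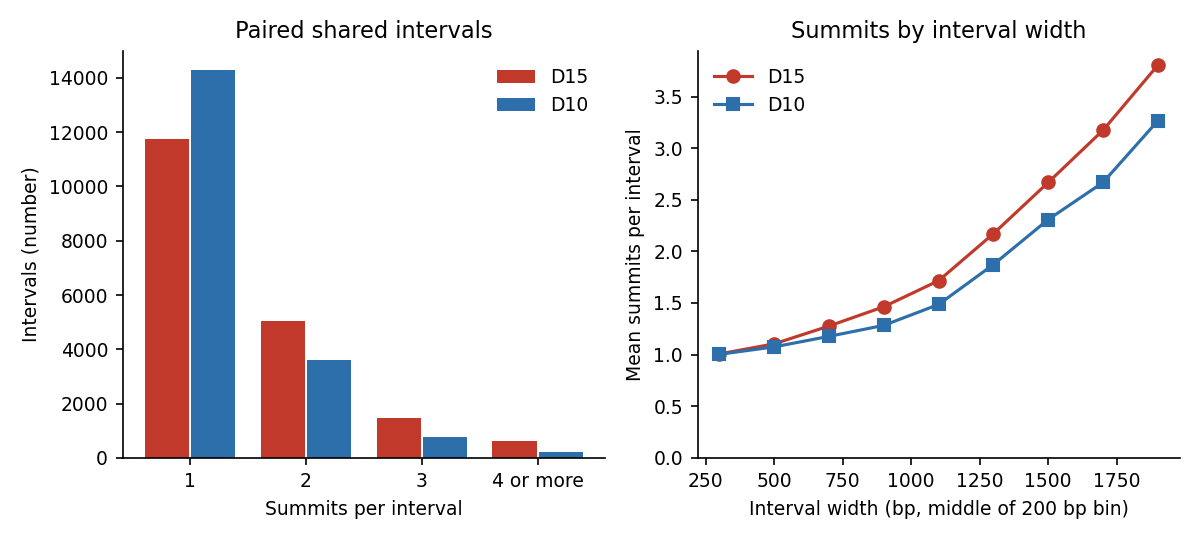
Left, number of paired shared intervals (y axis) with 1, 2, 3 or 4 or more summits (x axis) at D15 (red) and D10 (blue). Right, mean summits per interval against interval width in 200 bp bins for the same 18872 pairs. D15 had fewer single-summit intervals (11758 against 14287 at D10) and a higher mean in each width bin, and there are no error bars because each stage has 1 list.

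The D15 interval with most summits lay in Sox12, a SoxC transcription factor gene. At D15 it spanned chr2:152395852-152399299 with 11 summits, and at D10 chr2:152396094-152399306 with 8, the most of any D10 interval together with 1 other. Hivep2, a zinc finger factor gene, had 9 summits at D15 in chr10:13964538-13967878 and 5 at D10. At Trim28, which encodes a corepressor, the D15 interval chr7:13023145-13025192 held 7 summits, and met 2 intervals of D10 with 3 summits in all.

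One-list regions of both stages lay away from gene starts. The centre was within 1 kb of a listed transcript start in 9.70% (8.99 to 10.5%) of D15-only and 9.57% (8.91 to 10.3%) of D10-only regions, against 51.7% (51.0 to 52.4%) of shared regions. Starts on chromosome 18 were not used here, and its regions counted as farther. The median distance to the nearest listed start was 20.04 kb for D15-only, 26.7 kb for D10-only and 0.45 kb for shared regions. By gene bodies of all chromosomes, regions over 50 kb from any protein-coding gene body made up 18.05% (17.1 to 19.0%) of D15-only and 22.5% (21.6 to 23.5%) of D10-only regions. An annotated gene end is here either bound of a protein-coding gene, so it can be the start. Within 1 kb of one were centred 8.85% (8.16 to 9.58%) of D15-only and 9.40% (8.74 to 10.1%) of D10-only regions, and these intervals overlapped. With equal numbers of top peaks this share was 8.66% (7.86 to 9.54%) of D15-only and 10.6% (9.90 to 11.2%) of D10-only regions. With both lists cut at −log10 q of at least 5 it was 13.9% (12.8 to 15.0%) of D15-only and 18.5% (17.0 to 19.99%) of D10-only regions. About the same share of each lay inside a gene body, 51.4% of D15-only and 51.1% of D10-only regions, against 68.1% of shared regions.

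**Figure D2:**
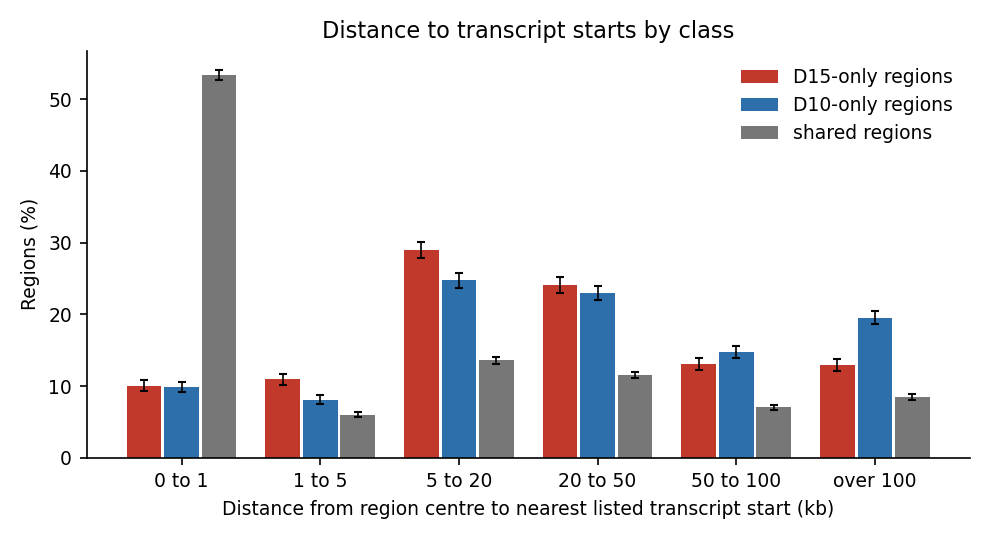
Share of D15-only (red), D10-only (blue) and shared (grey) regions (y axis, %) by distance from the region's centre to the nearest listed transcript start (x axis, kb), with Wilson 95% bars and without chromosome 18. Over 100 kb lay 12.9% of D15-only and 19.5% of D10-only regions, whereas 53.3% of shared regions lay within 1 kb.

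The earlier lists separated the classes more clearly than position did. D10-only regions had mostly been called before: 69.9% (68.8 to 70.9%) were in the D8 list and 75.5% in the D7 list. Of D15-only regions, 42.1% were in the D8 list and 44.2% in the D7 list. No other list than D15 held 2602 of the D15-only regions (41.9%, 40.7 to 43.2%), whereas no other list than D10 held 1162 of the D10-only regions (16.4%, 15.5 to 17.2%). D7 and D8 were long lists, with 57912 and 45463 intervals, but the gap between the classes was also there at D6, a list of 28278 intervals, which held 17.3% of D15-only and 32.6% of D10-only regions. With equal numbers of top peaks, 42.5% of D15-only and 72.0% of D10-only regions were called at D8. With both lists cut at −log10 q of at least 5 the D8 list held 62.2% of D15-only and 92.2% of D10-only regions. The regions of that cut include some that the other list called more weakly.

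Many D15-only regions had been called before D10. Both D7 and D8 called 34.9% (33.7 to 36.0%) of them, although D10 did not, and every list from D5 to D8 called 10.4% (9.71 to 11.2%). Of D10-only regions, D7 and D8 together called 65.4% (64.3 to 66.5%), and every list from D5 to D8 called 25.04% (24.0 to 26.1%). Regions called at 2i, D0 or D1, absent from D4 to D8, and back at a late stage were few, with 112 (1.80%) among D15-only and 73 (1.03%) among D10-only regions. Shared regions were called in all of the other 10 lists in 57.7% of cases, against 1.51% of D15-only and 5.35% of D10-only regions.

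**Figure D3:**
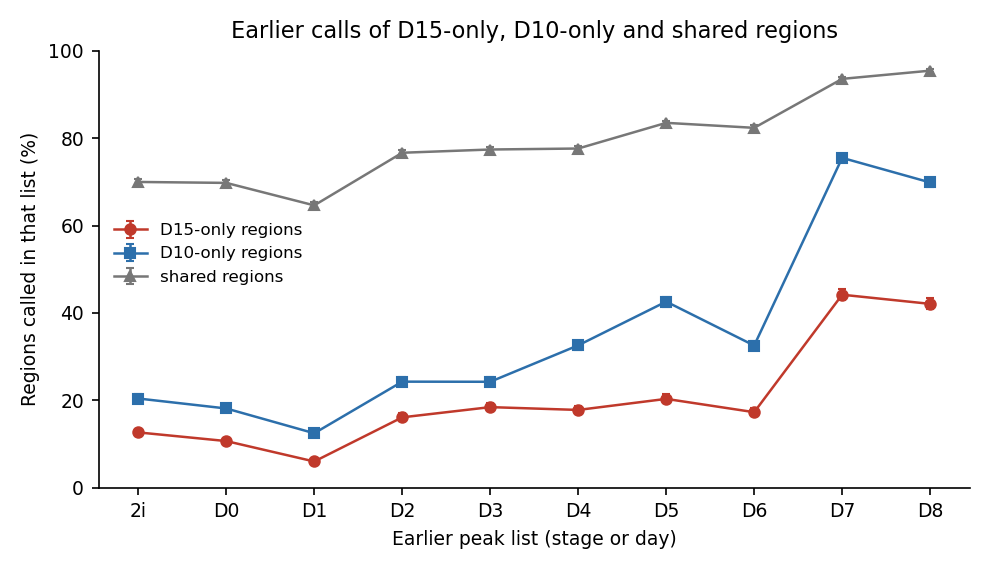
Share of D15-only (red circles), D10-only (blue squares) and shared regions (grey triangles) called in each earlier list (y axis, %), from 2i to D8 (x axis), with Wilson 95% bars. D15-only regions lie below D10-only regions in each of the 10 lists, with 42.1% against 69.9% at D8.

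Labels of the cells were set beside marker genes. An interval in the gene body or within 5 kb of it was found for 6 of 11 cardiomyocyte markers at D15 and for 5 of 11 at D10, with 11 intervals at D15 and 12 at D10. Tnnt2 and Tnni1 (troponins), Myl7 (the atrial light chain) and Ryr2 (the ryanodine receptor) were called at both stages, Tnni3 and Actc1 at D15 and not D10, and Myl2 at D10 and not D15. None was called at D15 at Myh6, Myh7, Myl2, Ttn or Nppa, and none at D10 at Myh6, Myh7, Tnni3, Actc1, Ttn or Nppa. The same 11 genes had 37 intervals at D7 and 31 at D8, in longer lists. D6, a list of 28278 intervals and so closer in length, had 1 interval each at Myh6, Myh7, Myl2 and Ttn and 0 at Nppa. Myh6, the main myosin heavy chain of the adult mouse heart, had 2 intervals at D7, 2 at D8 and none at D15 or D10. The peak lists of both stages thus lack several defining cardiomyocyte genes, and the label rests on the submitters. The share of all genes with an interval within 5 kb was not counted, so these and the next marker counts have no background. By assignment of regions to genes within 50 kb, 7 of the 11 markers had a D15 region and 5 a D10 region. Over all protein-coding genes that was 62.1% at D15 and 63.4% at D10, so the counts say little about the label.

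Markers of other cell types were present in both lists. All 4 smooth muscle markers had an interval at D15 and 3 of 4 at D10, with 8 intervals at D15 and 3 at D10. All 4 epicardial and fibroblast markers had one at both stages, with 10 intervals at D15 and 11 at D10. Endothelial markers had 6 at D15 and 8 at D10, at 3 of 4 genes, with Cdh5 lacking in both. Blood markers had 6 at D15 and 3 at D10, endoderm markers 2 and 2, neural markers 3 and 3, pluripotency markers 1 and 1, and skeletal muscle markers none at either stage. Their part in the gene counts below was not tested.

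Regions were then assigned to the protein-coding gene holding their centre, or else to the nearest one within 50 kb. Of 21631 genes, 62.1% had a D15 region of any class and 63.4% a D10 region. A D15-only region was assigned to 17.1% of genes and a D10-only region to 18.2%. Near genes there were 5086 D15-only and 5505 D10-only regions, so D15 held 48% of these one-list regions, and the gene groups below are read against that share. All groups were lists of known genes, their regions are few, and their intervals are wide. Gata6, Sox17, Sox2, Tbx3, Acta1, Pax7 and Ckm are each in 2 groups, and their regions count in both.

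**Figure D4:**
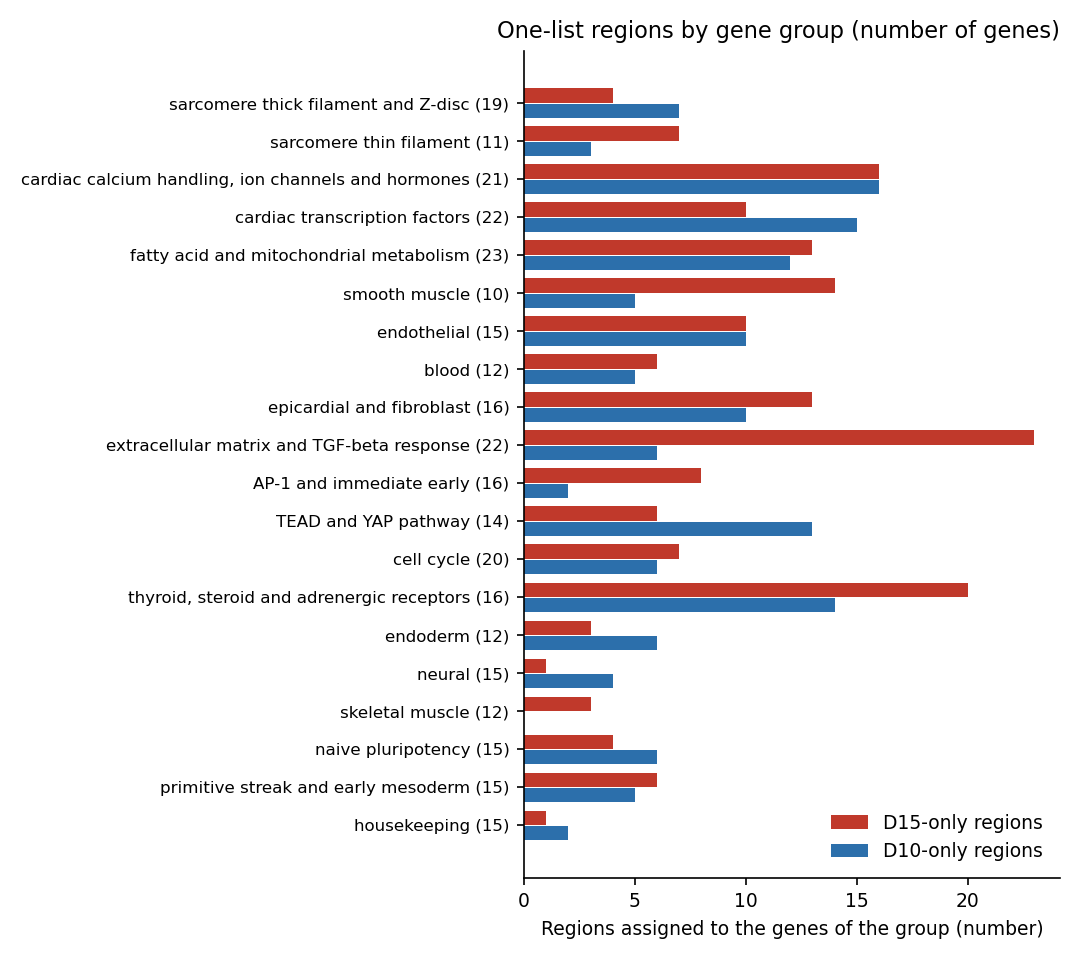
Number of D15-only (red, upper bar) and D10-only (blue, lower bar) regions (x axis) assigned to the genes of each of 20 groups (y axis, number of genes in brackets). The widest gap is at extracellular matrix and TGF-beta response genes, with 23 D15-only and 6 D10-only regions.

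Extracellular matrix and TGF-beta response genes had the widest gap in counts towards D15. Their 22 genes had 23 D15-only and 6 D10-only regions, so D15 held 79.3% (61.6 to 90.2%) of their one-list regions, beside 48% over all genes. D15-only regions lay at 13 of these genes and D10-only regions at 5. With equal numbers of top peaks the counts were 20 at D15 and 9 at D10, where D15 held 35.7% over all genes, and at −log10 q of at least 5 they were 16 and 6, a D15 share of 72.7% beside 58.8% over all genes.

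Col4a2, a chain of basement membrane collagen, had 4 D15-only and 0 D10-only regions, beside 4 shared. The strongest, at chr8:11393016-11393716 inside the gene, was enriched 7.02-fold and had been called at D5, D7 and D8. Timp3, an inhibitor of matrix metalloproteinases, had 3 D15-only and 2 D10-only regions. Its D15-only region at chr10:86339357-86340148, with a fold enrichment of 6.85, had been called earlier at D7 alone. Bgn, Tgfbi, Col5a1 and Col5a2 had 2 D15-only and 0 D10-only regions each, and Tnc, encoding tenascin C, had 2 D15-only and 1 D10-only. Tgfb2, a ligand of the pathway, had 1 D15-only, 0 D10-only and 2 shared regions. Fbn1 had 0 D15-only and 1 D10-only regions, and Eln had 1 of each. Of the 23 D15-only regions of the group, 15 (65.2%) had been called at D7 or D8 and 8 (34.8%) in no other list, beside 53.6% and 40.1% of the D15-only regions near all genes.

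Smooth muscle genes had 14 D15-only and 5 D10-only regions at 10 genes, a D15 share of 73.7% (51.2 to 88.2%). With equal numbers of top peaks they had 7 at D15 and 8 at D10, so the order turned, although the D15 share of 46.7% was then beside 35.7% over all genes. Acta2, smooth muscle actin, had 2 D15-only regions, at chr19:34243915-34244442 and chr19:34254250-34254699, both inside the gene and both called at D7 and D8. Myh11, the smooth muscle myosin heavy chain, had 2 D15-only regions and no D10 region of any kind, and both had been called at D7 and D8. Mylk, which encodes myosin light chain kinase, had 5 D15-only and 3 D10-only regions, and Tagln had 1 D15-only and 0 D10-only. Cald1 had 2 D15-only and 1 D10-only regions, and Lmod1 had 0 and 1. Of the 14 D15-only regions at these genes, 9 (64.3%) had been called at D7 or D8, beside 53.6% near all genes.

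Epicardial and fibroblast genes had 13 D15-only and 10 D10-only regions, and under equal numbers of top peaks 7 at D15 and 12 at D10. The latter is a D15 share of 36.8%, beside 35.7% over all genes in that setting. At −log10 q of at least 5 the counts were 11 at D15 and 2 at D10, a D15 share of 84.6% beside 58.8% over all genes. Lum, encoding the collagen-binding proteoglycan lumican, had 2 D15-only regions at chr10:97556886-97557357 and chr10:97565359-97565686, with fold enrichments of 7.26 and 6.08, and neither was called in any other list. Tcf21, a factor of epicardium-derived fibroblasts, had 2 D15-only and 0 D10-only regions. Wt1, an epicardial factor, had 1 D15-only and 3 D10-only regions, and Postn had 1 D15-only and 2 D10-only. Within the group 8 of 13 D15-only regions and 1 of 10 D10-only regions were called in no other list, beside 40.1% of D15-only and 14.8% of D10-only regions near all genes.

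Immediate early genes, which include the AP-1 subunits, had 8 D15-only and 2 D10-only regions at 16 genes, a D15 share of 80% (49.0 to 94.3%). At −log10 q of at least 5 the counts were 3 and 3, so the D15 share of 50% was then below the 58.8% over all genes. Fos and Myc had 2 D15-only regions each and no D10-only region, and Fosb had 1 D15-only region, at chr7:19326508-19327542 with 2 summits. The Fosb region and the one at chr12:85472103-85472729, to the left of Fos, had both been called in every list from D2 to D8. Most regions of this group, 33, were shared by both stages.

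Genes of the TEAD and YAP pathway, which controls growth, were on the other side. They had 6 D15-only and 13 D10-only regions at 14 genes, a D15 share of 31.6% (15.4 to 54.0%), and stayed below the share over all genes under the 5 alternative settings tried. Thick filament and Z-disc, cardiac transcription factor, endoderm and neural genes did so too. Tead1, a DNA-binding factor of the pathway, had 1 D15-only and 3 D10-only regions. Wwtr1, which encodes the coactivator TAZ, had 0 D15-only and 2 D10-only regions, as did Vgll2, a TEAD cofactor. Both Vgll2 regions, one of them at the start with a fold enrichment of 5.05, were called in all of the other 10 lists, so D15 is the one list without them. Amotl1, an inhibitor of YAP, had 3 D15-only and 1 D10-only. Of the 13 D10-only regions, 12 had been called at D7 or D8, where 81.9% of the D10-only regions near all genes had been called.

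Sarcomere gene lists were short, and their counts of one-list regions were small. Over all 21631 protein-coding genes there were 10591 one-list regions. Thin filament genes had 7 D15-only and 3 D10-only regions at 11 genes, and thick filament and Z-disc genes had 4 D15-only and 7 D10-only at 19. Actc1, cardiac actin, had 2 D15-only regions to its right, at chr2:114057345-114057768 and chr2:114058008-114058417, and no D10 region. The first of them had been called in each other list except D1. Tnni3, the adult cardiac troponin I, had 1 D15-only region inside the gene at chr7:4521344-4521581, with a fold enrichment of 3.33, called before at D7. Tnni1, the fetal troponin I, had 2 shared regions. Cfl2, a muscle cofilin, had 2 D15-only regions and Tpm1, tropomyosin, had 2 D10-only regions. Tmod1 had 0 D15-only and 1 D10-only regions.

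Among thick filament and Z-disc genes, Myh7, the slow and fetal cardiac myosin, had 1 D15-only region 9.53 kb to its right. Myl2, the ventricular light chain, had 1 D10-only region, whose −log10 q of 1.34 is close to the threshold of the list. Nebl, a Z-disc protein gene, had 1 D15-only, 2 D10-only and 4 shared regions. Ldb3 had 0 D15-only, 1 D10-only and 1 shared region. Ttn, titin, had no region at either stage. With both lists cut at −log10 q of at least 5, thin filament genes had 1 D15-only and 0 D10-only regions, and thick filament genes had 1 and 4.

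Genes for calcium handling, ion channels and cardiac hormones had as many D15-only as D10-only regions, 16 of each, beside 37 shared. With equal numbers of top peaks they had 12 D15-only and 20 D10-only, a D15 share of 37.5% beside 35.7% over all genes. At −log10 q of at least 5 they had 9 and 11, a D15 share of 45% beside 58.8%. Cacna1d, an L-type channel pore of pacemaker cells, had 5 D15-only and 1 D10-only regions. Cacna1c, the main L-type pore of the ventricle, had 0 D15-only, 1 D10-only and 7 shared. Ryr2, the ryanodine receptor, had 1 D15-only and 3 D10-only regions. Jph2, which holds the junction between plasma membrane and calcium store, had 2 D15-only and 3 D10-only regions. One of the D10-only regions of Jph2, chr2:163397937-163398412, covered its promoter window and had been called in every list from D3 to D8. Kcnh2 and Kcnq1, potassium channels of repolarization, had 2 D15-only regions each, with 1 D10-only at Kcnh2 and 2 at Kcnq1. Atp2a2, the SERCA pump, had 1 D15-only and 0 D10-only regions, and Nppb, a natriuretic peptide, had 0 and 1. Pln, which encodes phospholamban, another SERCA inhibitor, had none of any class.

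Cardiac transcription factor genes had 10 D15-only and 15 D10-only regions, beside 54 shared. Nkx2-5 had 1 D15-only region at chr17:26861238-26861981, 16.6 kb to its right, with a fold enrichment of 5.60, which no other list called. Tbx5 had 1 D15-only region inside the gene, called also at D7 and D8. Gata4 had 2 D15-only, 0 D10-only and 5 shared regions, whereas Gata6 had 0 D15-only, 2 D10-only and 2 shared. Nr2f2, an atrial factor, had 3 D15-only and 0 D10-only regions. Meis1 had 2 D15-only and 3 D10-only, Hand1 had 0 and 1, and Isl1, a progenitor factor, 0 and 1. The Isl1 region was called in all of the other 10 lists.

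Metabolic genes had 13 D15-only and 12 D10-only regions at 23 genes, and with equal numbers of top peaks D10 had 9 more than D15. The D15 share was then 30.4%, beside 35.7% over all genes. Ppara, a nuclear receptor that drives fatty acid oxidation, had 2 D15-only and 0 D10-only regions, and so did Ppargc1b, a coactivator of mitochondrial genes. The related coactivator Ppargc1a had 3 D15-only and 5 D10-only regions. The strongest of these, chr5:52051651-52052173 inside Ppargc1a, was D10-only with a fold enrichment of 7.65 and had been called at D7 and D8. Esrrg, an orphan receptor of oxidative metabolism, had 4 D15-only and 6 D10-only regions. Myoglobin (Mb) had 1 D15-only and 0 D10-only regions.

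Thyroid, steroid, retinoid and adrenergic receptor genes, several of which act in heart maturation, had 20 D15-only and 14 D10-only regions at 16 genes, a D15 share of 58.8%. Thra, the main thyroid hormone receptor of the heart, had 3 D15-only and 1 D10-only. Rxra, the shared partner of these receptors, had 4 D15-only and 1 D10-only regions, and Rarb, a retinoic acid receptor, had 1 D15-only and 5 D10-only. With equal numbers of top peaks the counts were 16 each, a D15 share of 50% beside 35.7% over all genes.

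Gene lists of other lineages were short, and their counts of one-list regions were small. They ranged from 20 at 15 endothelial genes to 3 at 12 skeletal muscle genes, beside 10591 at all 21631 protein-coding genes. Endothelial genes had 10 D15-only and 10 D10-only, with 3 D15-only at the receptor Tek and 3 D10-only at the VEGF receptor Flt1. Blood genes had 6 D15-only and 5 D10-only, cell cycle genes 7 and 6, primitive streak and early mesoderm genes 6 and 5, and naive pluripotency genes 4 and 6. Endoderm genes had 3 D15-only and 6 D10-only regions, of which 2 D10-only lay at Sox17 and were called in all of the other 10 lists. Neural genes had 1 D15-only and 4 D10-only, skeletal muscle genes 3 and 0, and housekeeping genes 1 and 2.

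Over the whole genome, the genes with most one-list regions were long. Wwox, an oxidoreductase gene of 913 kb, had 14 D15-only, 1 D10-only and 1 shared region. The strongest D15-only region in it, at chr8:114458284-114459073 with a fold enrichment of 7.02, was called in no other list. Coro2b (a coronin) and Arhgap26 had 7 D15-only and 0 D10-only regions each. Magi1, Lrmda and Tns1 also had 7 D15-only regions, with 2, 4 and 4 D10-only, and Ano6, Ccbe1, Cobl and Nfib had 6 each, with 3, 4, 3 and 1 D10-only.

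The genes with most D10-only regions were long too. Nav2, a neuron navigator, had 4 D15-only and 10 D10-only regions, and its relative Nav3 had 0 D15-only and 8 D10-only. Auts2 had 5 D15-only and 9 D10-only, Macrod2 1 and 9, Nfia 5 and 8, Phactr2 2 and 8, and Tenm4 6 and 8. Dlg2, Dscam and Pakap had 7 D10-only regions each, with 2, 1 and 4 D15-only.

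The one-list regions of highest fold enrichment included very narrow ones. At D15 the 3 highest, with fold enrichments of 30.5, 24.6 and 18.3, were 214, 273 and 231 bp wide, lay over 50 kb from any gene, and were called in several earlier lists or, for the highest, at D6. At D10 the highest, 223 bp wide with a fold enrichment of 18.4, was also far from genes and was called in 6 other lists. Among the 10 highest of each list were also 2 D15-only regions (fold enrichments of 11.1 and 10.0) and 3 D10-only regions (9.92, 9.65 and 9.30) over 50 kb from any gene. The other D15-only regions of the 10 were in Greb1l (10.4), beside Cp (9.94, the ceruloplasmin gene), beside Efcab1 (9.80), beside Fgf23 (9.64, a hormone of phosphate balance) and in Pik3c2g (9.63). Those at Cp, Efcab1 and Fgf23 were called in no other list. The other D10-only regions were beside Nfia (10.3), Gm10406 (9.88), Qrfprl (9.87) and Crhr1 (8.97) and in Pde4b and Lrrc8d (8.99 each), all of them called in at least 1 other list.

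Promoter calls differed little between the stages. Of 26794 genes with a listed window, 10793 (40.3%) were called at both stages, 438 (1.63%) at D15 and not D10, and 547 (2.04%) at D10 and not D15. Of the 438, 62 (14.2%, 11.2 to 17.7%) were in no other list, and of the 547, 25 (4.57%, 3.11 to 6.66%). The windows of 50 of the 438 (11.4%) and of 162 of the 547 (29.6%) were called in all of the other 10 lists. Some of these windows differ only because an interval reached them at one stage and stopped short at the other: the interval lay in a shared region for 126 of the 438 (28.8%) and 111 of the 547 (20.3%). D8 called 72.6% of the D15-not-D10 windows and 88.3% of the D10-not-D15 windows.

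Of the 62 genes whose promoter was called at D15 alone of all lists, 27 were protein-coding. Besides Mrln, Cox8b and Bgn they included Fxyd1, encoding phospholemman, a regulator of the sodium pump and exchanger in heart, with a fold enrichment of 6.69, and Lrrc2, with 6.05. The Fxyd1 interval lay in a shared region, as did that of Cd302 below, and the interval of Lrrc2 in a D15-only region. Myh8, the perinatal skeletal myosin (4.16), Cd302 (6.37), the peptidase gene Enpep (5.76), Camp (6.03), Anxa1 (4.80) and Cyp1b1 (4.57) were also among them, chosen after their values were seen. Among genes of the groups, Tgfbi, Bmp4, Foxa2 and Foxa3 were called at D15 and not D10, and each had been called earlier, with the Foxa3 interval in a shared region. Jph2, the fatty acid oxidation enzyme Acadvl (4.02), Lyl1 and Esrrb were called at D10 and not D15, and also earlier, with the Acadvl interval in a shared region. The windows of Tgfb2, Sox1 and Sox2 were met by a D10 interval alone, but those intervals too lay in regions shared with D15. Fgfbp3, an FGF-binding protein gene, was called at D10 alone of the 12 lists with a fold enrichment of 9.05, by an interval in a shared region.

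Promoter sequences of the 2 differing classes resembled each other. TATAAA, read on both strands, was in 11.3% (8.996 to 14.1%) of the 593 windows called at D15 and not D10, in 10.3% (8.23 to 12.8%) of the 669 called at D10 and not D15, in 5.30% (4.92 to 5.70%) of those called at both, and in 13.7% of all windows. GGAATG was in 18.5% (15.6 to 21.9%) of the D15-not-D10 windows, 15.2% (12.7 to 18.2%) of the D10-not-D15 windows, 11.0% (10.5 to 11.6%) of those called at both and 14.6% of all. The AP-1 letters TGANTCA were in 8.94% (6.90 to 11.5%) of D15-not-D10, 6.88% (5.19 to 9.05%) of D10-not-D15 and 3.61% (3.30 to 3.96%) of both-stage windows, and in 7.85% of all. GATAAG, read by GATA factors, was in 7.59% (5.72 to 10.0%) of D15-not-D10, 6.13% (4.55 to 8.21%) of D10-not-D15 and 3.97% (3.64 to 4.33%) of both-stage windows, and in 7.47% of all. The intervals of the D15-not-D10 and D10-not-D15 windows overlapped for each of these motifs, and both lay above those of the windows called at both stages. Some genes, such as Jph2, have several windows that overlap. The windows are thus not independent, and these intervals are too narrow. The median share of G and C, which bears on how often any letters match, was 55.7% in D15-not-D10, 56% in D10-not-D15 and 63% in both-stage windows, and 53% in all.

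The E-box letters CANNTG were in 72.3% of D15-not-D10, 72.0% of D10-not-D15 and 60.0% of both-stage windows, and in 72.3% of all. CCAAT was in 28.8% of D15-not-D10, 31.2% of D10-not-D15 and 37.97% of both-stage windows, and in 37.6% of all. CTA and TAG separated by any 4 bases, the spacing read by MEF2, were in 3.88% of D15-not-D10, 3.59% of D10-not-D15 and 2.62% of both-stage windows, and in 3.71% of all. CC and GG separated by 6 bases, the spacing of the SRF site, were in 82.1% of D15-not-D10, 81.5% of D10-not-D15 and 89.0% of both-stage windows, and in 73.5% of all. A match is a description of the letters, not a bound site.

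MicroRNA genes close to one-list regions were looked up by their hairpins. Of 1005 hairpins, 17 (1.69%) lay within 1 kb of a D15-only region and 22 (2.19%) within 1 kb of a D10-only region. The mature forms below were picked for being studied in heart or for a shared seed (bases 2 to 8, in capitals), after their calls were seen, and the sequences are from RefSeq.
miR-30a-5p: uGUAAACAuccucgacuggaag
miR-22-3p: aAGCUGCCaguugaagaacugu
miR-125b-5p: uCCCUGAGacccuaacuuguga
miR-344-3p: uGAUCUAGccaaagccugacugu
miR-344c-3p: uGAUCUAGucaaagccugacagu

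The D15-only region beside Mir30a, at chr1:23271476-23271720, lay 549 bp from the hairpin, had a fold enrichment of 3.84 and had been called at D7. The D15-only region beside Mir22, a gene active in striated muscle, was at chr11:75462700-75463292, 424 bp away, with a fold enrichment of 3.02, and had been called at 2i, D6, D7 and D8. Mir125b-1 had a D10-only region at chr9:41580846-41581182, 744 bp away, with a fold enrichment of 4.84, called also at D7 and D8. miR-344-3p and miR-344c-3p share the seed GAUCUAG, and their hairpins lie in the same cluster on chromosome 7. The Mir344 hairpin was covered by a D15-only region (chr7:61877741-61877992, fold enrichment 3.52) and the Mir344c hairpin by a D10-only region (chr7:61837310-61837776, fold enrichment 7.69). The hairpins Mir344d-2 and Mir344g of the same cluster were also covered by D10-only regions, each with a fold enrichment of 3.13. Whether reads were placed uniquely among the copies was not tested, so these calls are uncertain.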

How the data were processed

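Per the submitters' processing notes, the tools were MACS2 2.1.1, Picard, SAMtools 1.5, Bowtie2 2.3.2 and cutadapt 2.10, with the mm10 build. The sources used here do not give settings, any shift for the transposase offset, the way replicates were combined or sequencing depth. The deposited peak lists hold the authors' own values for each peak: a fold enrichment (a linear ratio), a −log10 p, a −log10 q and a summit offset. Replicates of a stage share 1 list, so stages could not be tested.

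Peaks with the same bounds were taken as 1 interval with several summits, and overlapping intervals of D15 and D10 were merged into regions. Genes, starts and promoter windows of 300 bases came from RefSeq tables of GRCm38.p6; 17274 of 21631 protein-coding genes had a listed start, and the gene bounds carry no strand. All 314 genes of 20 groups matched by symbol. Shares have Wilson 95% intervals (Python 3.11.15, pandas 2.3.3, scipy 1.17.1). Overlap and counting were tested on simulated regions and against bedtools. Genes were named by a rule: up to 3 per group with most D15-only and most D10-only regions, and the 10 with most of each genome-wide. The rule also took the genes of the 10 one-list regions of highest fold in each list, and marker genes. Some genes of the rule are not printed, with or without a one-list region. In the group paragraphs Col5a1, Col5a2, Tgfbi, Tnc, Tgfb2, Tagln, Ppargc1b and Mb were named outside the rule. All of these have more D15-only than D10-only regions. Alternatives were equal numbers of top peaks or intervals, −log10 q of at least 5, a reciprocal overlap of 50%, windows of 100 bp to either side of each summit and assignment within 20 or 100 kb. The regions and lists were chosen with earlier results of these data known. Loci left out of the sources are not analysed here.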

Additional observations from a re-analysis of the deposited data

How the results depend on the processing

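No paired analysis was possible because both replicates of a stage share 1 peak list, and for the same reason no replicate could be left out. Depth is unknown, so regions with weak peaks are the least certain. As reported there were 6206 D15-only, 7105 D10-only and 19115 shared regions. At −log10 q of at least 5 there were 3694 D15-only and 2669 D10-only regions, some of them called more weakly in the other list. With windows of 100 bp to either side of each summit there were 12895 D15-only regions. The share of D15 intervals not called at D10 (24.4%) was 19.0% with equal numbers of top peaks by q, 21.2% by fold, 20.5% at −log10 q of at least 5, 32.4% with an overlap of 50% of both intervals, 36.6% with summit windows and 25.1% with equal numbers of top intervals, an alternative chosen after seeing the data. The share of D10 intervals not called at D15 (26.9%) was 30.6%, 29.5%, 15.7%, 34.9%, 31.9% and 24.9% under those settings. D15-only regions outnumbered D10-only regions at the stricter q, with summit windows and with equal intervals. D10-only regions were the more numerous with equal peaks and the stricter overlap. The setting of equal peaks removed peaks from D15 only, since all 32641 peaks of D10 were kept. That of equal intervals removed intervals from D10 only, since all 25413 intervals of D15 were kept. The cause of the order was not tested. Shared regions numbered between 14256 and 21110 under the 6 alternatives, within 1.5 times the reported count. Of 100 group results under 5 settings, 48 stayed within 1.5 times, 42 moved and 10 changed sign. The D15 minus D10 difference turned with equal numbers of top peaks for metabolism (-9), smooth muscle (-1), blood (-2), epicardial and fibroblast (-5), cell cycle (-2) and primitive streak genes (-5). D15 held only 35.7% of one-list regions near all genes in that setting. Smooth muscle, blood, epicardial and fibroblast and cell cycle genes stayed above that share, and metabolism and primitive streak genes lay below it. At −log10 q of at least 5 the difference turned for naive pluripotency (1), primitive streak (-3) and housekeeping genes (3), and within 20 kb for metabolism (-1). Matrix genes stayed above, and TEAD and YAP genes below, the D15 share of all genes under each of the 5 settings. They were not alone in this. Thin filament, smooth muscle, blood, epicardial and fibroblast, cell cycle, receptor and skeletal muscle genes also stayed above it. Thick filament and Z-disc, cardiac transcription factor, endoderm and neural genes also stayed below it. Some groups share genes, such as Gata6 in the cardiac transcription factor and endoderm groups, so they are not all separate results. Counts are small, and the cause of each turn was not tested.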
